A study of Mus with 21 samples.

Results

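The transcripts of 10 genes of haemoglobin production, heme breakdown and iron handling were followed in mouse skin wounds, out of 18806 genes counted. The genes were chosen by symbol: the adult globin genes Hba-a1, Hba-a2, Hbb-bs and Hbb-bt, the heme synthesis gene Alas2, the heme breakdown gene Hmox1, the iron exporter gene Slc40a1, the ferritin genes Fth1 and Ftl1, and the haptoglobin gene Hp. All 10 passed edgeR's filter on low counts over the 21 libraries, as did 15811 genes in total. The mice were wild-type female C57BL/6 animals, aged 8 weeks, and each received full-thickness dorsal wounds of 8 mm that were splinted and sampled on day 4. One group, the control, received no scaffold. In the other groups the wound was filled with a GelMA hydrogel, a light-cured methacrylated gelatin, whose pH was set to 6.4, 7.4 or 8.4 and whose solution held 4 µg/ml of acidic (aFGF) or basic (bFGF) fibroblast growth factor. Each of these 6 groups is written as its pH and its growth factor, for example 6.4/aFGF. Each of the 7 groups held 3 libraries, labelled as biological replicates. Each mouse was wounded on both sides, and whether the libraries of a group came from separate mice is not given in the sources used here. The p-values therefore take their error from the spread between libraries. They could be too small for a statement about mice if libraries shared a mouse. No group carried a hydrogel without growth factor, so scaffold and growth factor cannot be told apart in a comparison with the control.

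Haemoglobin is built from alpha and beta globin chains, each holding a heme group with an iron atom. Heme synthesis in red cell precursors starts with the enzyme ALAS2, while other cells use ALAS1. Young red cells still hold globin mRNA after they have lost their nucleus, so blood in a tissue carries globin transcripts. In a wound, released haemoglobin is bound by haptoglobin and red cells are taken up by macrophages. Heme oxygenase 1, the product of Hmox1, opens the heme ring and frees its iron, which ferritin (heavy chain FTH1, light chain FTL1) stores and ferroportin (SLC40A1) exports. Hmox1 is also a well-known target of NRF2 and of oxidative stress.

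The files gave whole-number read counts for each gene, and a library held 34362558 to 37817833 counts (median 36771838). CPM, counts relative to the library's TMM-scaled total, are used to compare libraries, and FPKM, which also divides by gene length, is used wherever levels of different genes are compared. The skin genes were present in every library, with Krt14 at 1177 to 2942 CPM and Col1a1 at 9041 to 22135 CPM. Libraries that stood apart from the rest touch the results below. Replicate 3 of 7.4/aFGF held transcripts of cartilage, bone and marrow (described with the globin genes), replicate 2 of 8.4/bFGF those of ovary, with a summed FPKM of 557 over 12 ovary and oviduct genes against a median library of 24.9. Replicate 2 of 8.4/aFGF was left out together with them as a library with liver transcripts, although its summed FPKM of 204 over 14 liver genes was below that of control replicates 1 and 3 (474 and 232). That sum is led by Cyp2e1, Hpx and Alb. These genes went both ways between hydrogels and control (log2 fold change -2.31 for Cyp2e1, 0.93 for Hpx and 0.59 for Alb). The sum therefore does not rank the libraries by liver RNA, and it does not single out replicate 2 of 8.4/aFGF. These 3 libraries are called the other-tissue libraries below, by this choice. Among the controls, replicate 2 had a summed FPKM of 14642 over 10 neutrophil genes, against 2353 and 1537 in the other control libraries.

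The globin genes and Alas2 varied strongly from library to library in all groups but one. In the 6.4/bFGF wounds all 3 libraries were low, and for each of these 5 genes every 6.4/bFGF library lay below every library of 7.4/bFGF, of 6.4/aFGF and of the control. Of all genes, 8.07% were likewise without overlap and lower against 7.4/bFGF, and 8.47% against 6.4/aFGF. The difference between 6.4/bFGF and the control was not tested, and the share of all genes without overlap there was not counted. These 5 genes varied together from library to library, so they are not 5 separate observations. Hbb-bs, the more abundant of the adult beta globin genes of this strain, stood at 264, 266 and 251 CPM in 6.4/bFGF (mean 260.2 ± 8.06, SD, n = 3). In 7.4/bFGF it stood at 872, 476 and 503 CPM, and in 6.4/aFGF at 494, 755 and 448 CPM. The control libraries had 362, 438 and 629 CPM. The remaining groups overlapped with 6.4/bFGF, with the libraries of 7.4/aFGF at 292, 666 and 239.9 CPM, those of 8.4/aFGF at 725, 422 and 171 CPM, and those of 8.4/bFGF at 666, 285 and 219.7 CPM. Within each of the 7.4/aFGF, 8.4/aFGF and 8.4/bFGF groups, 1 library was thus much higher than another, whereas the 6.4/bFGF libraries lay close together.

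Alas2 was likewise lowest on average in 6.4/bFGF. On the FPKM scale it was far less abundant than Hbb-bs, with medians of 12.5 and 647 FPKM over the 21 libraries. It was counted at 16.0, 13.1 and 12.2 CPM in 6.4/bFGF, at 57.8, 38.2 and 37.9 CPM in 7.4/bFGF and at 34.8, 56.2 and 30.8 CPM in 6.4/aFGF. Its control libraries, at 21.7, 26.8 and 35.4 CPM, lay above those of 6.4/bFGF, below those of 7.4/bFGF, and overlapped with those of 6.4/aFGF. The control was not tested against 6.4/bFGF or 7.4/bFGF alone, and the share of all genes without overlap was not counted there. Hba-a1, an alpha globin gene, had 105.7, 85.5 and 95.9 CPM in 6.4/bFGF, 306, 162 and 174 CPM in 7.4/bFGF and 178, 284 and 187 CPM in 6.4/aFGF. Over all 21 libraries Hba-a1 spanned 66.5 to 306 CPM, Hba-a2 36.0 to 175 CPM and Hbb-bt 39.4 to 235.7 CPM. For Hba-a1, Hbb-bs, Hbb-bt and Alas2, the lowest library was replicate 3 of 8.4/aFGF, and for Hba-a2 it was replicate 3 of 8.4/bFGF. The highest library was replicate 1 of 7.4/bFGF for all 5 genes. In bulk RNA, fewer cells of a type and less RNA per cell cannot be told apart.

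**Figure D1:**
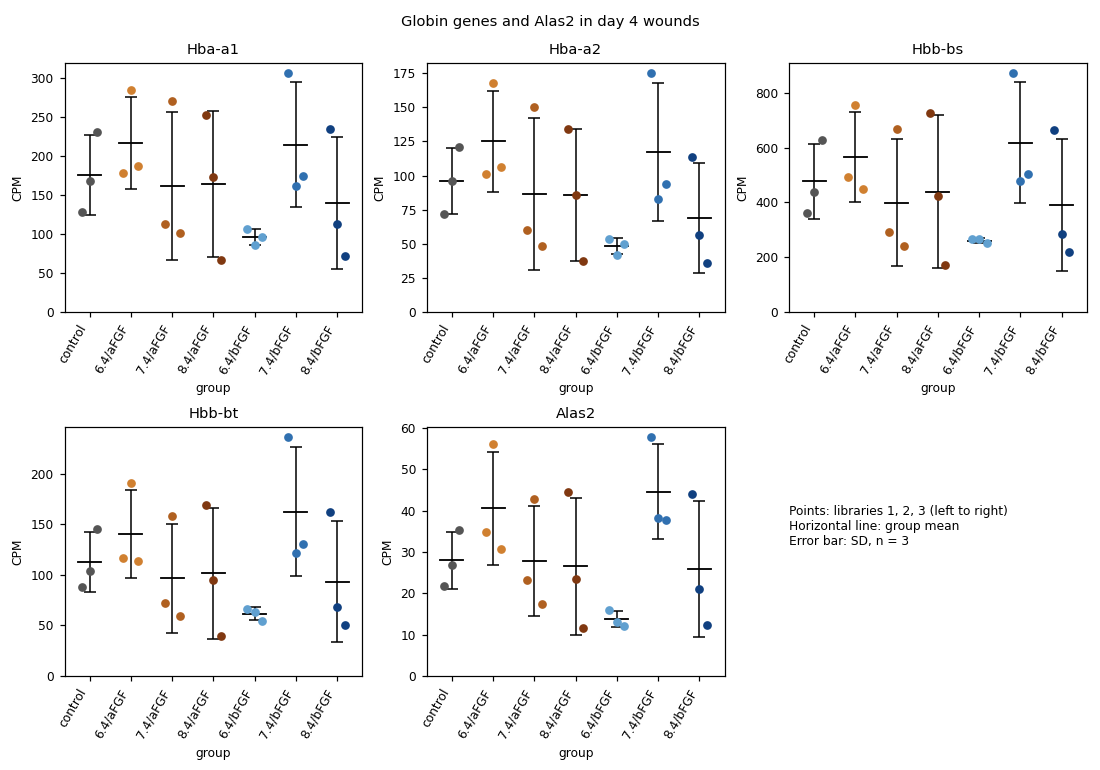
CPM (vertical axes, from 0) of the 4 globin genes and Alas2 in the 7 groups, with 1 point per library, the group mean as a line and the SD over 3 libraries as a bar. In every panel the 3 points of 6.4/bFGF lie close together and below all points of the control, 6.4/aFGF and 7.4/bFGF, while the points of 7.4/aFGF, 8.4/aFGF and 8.4/bFGF are spread widely. The share of all genes that lie below the control in this way was not counted.

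With bFGF, the acidic hydrogel was compared with the neutral one. A gene was called where edgeR's quasi-likelihood test gave a Benjamini-Hochberg adjusted p under 0.05 over all genes tested and a log2 fold change beyond 0.58. The log2 fold change of 6.4/bFGF against 7.4/bFGF was -1.68 for Alas2 (SE 0.21), -1.39 for Hbb-bt (SE 0.28), -1.26 for Hba-a2 (SE 0.30), -1.23 for Hbb-bs (SE 0.25) and -1.14 for Hba-a1 (SE 0.27). None of the 10 genes was called, with an adjusted p of 0.42 for Alas2 and of 0.542 for the 4 globin genes. Of all 14976 genes tested, edgeR called 0 (0%). An unadjusted p under 0.05 was reached by 1332 genes (8.89%), among them these 5, and Alas2 ranked at position 6 of all genes by p. DESeq2 called all 5 (adjusted p from 7.19e-09 for Alas2 to 0.0118 for Hba-a2) among 113 of its 15106 genes (0.748%). All 5 genes were without overlap and lower in 6.4/bFGF, as were 8.07% of all genes tested. The median over the 10 genes was -1.04, beside 0.01 over all genes tested. Without replicate 3 of 7.4/bFGF, edgeR called Alas2 (log2 fold change -1.80, adjusted p = 0.0167).

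At pH 6.4, aFGF was compared with bFGF, a comparison added once values were known, which shares its 6.4/bFGF libraries with the one above. The log2 fold change of 6.4/aFGF against 6.4/bFGF was 1.56 for Alas2 (SE 0.25), 1.36 for Hba-a2 (SE 0.22), 1.19 for Hbb-bt (SE 0.22), 1.17 for Hba-a1 (SE 0.21) and 1.11 for Hbb-bs (SE 0.21). edgeR called none of the 10 genes (adjusted p of 0.584 to 0.587 for these 5) and 0 of 14994 genes in all (0%), with 1223 genes (8.16%) at an unadjusted p under 0.05. DESeq2 called these 5 among 121 genes (0.803%). Groups without overlap and with 6.4/aFGF higher occurred in 8.47% of all genes. With aFGF, the same pH contrast gave smaller values of the opposite sign. The log2 fold change of 6.4/aFGF against 7.4/aFGF was 0.43 to 0.54 for the 5 genes, with 95% intervals that all included 0, and no member was called by edgeR, which called 0 of 15019 genes (0%; 750 genes, or 4.99%, at an unadjusted p under 0.05) there, nor by DESeq2, which called 20 (0.139%). No member was without overlap, against 10.9% of all genes.

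The difference between both pH effects was tested in 1 fit of the 12 libraries. It amounted to a log2 difference of 2.22 for Alas2 (SE 0.48), 1.92 for Hbb-bt (SE 0.54), 1.79 for Hba-a2 (SE 0.60), 1.73 for Hbb-bs (SE 0.54) and 1.57 for Hba-a1 (SE 0.54). edgeR called none of these (adjusted p = 0.765 for Alas2 and 0.804 for the globin genes) and 0 of 15449 genes in all (0%), while 941 genes (6.09%) had an unadjusted p under 0.05. DESeq2 called Alas2 alone of the members (adjusted p = 0.0114), among 28 genes (0.173%).

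Genes of other lists also had lower estimates in 6.4/bFGF than in 7.4/bFGF. The skeletal muscle list had a summed FPKM of 1120 to 1773 in 6.4/bFGF, and in 7.4/bFGF it was 8446, 8715 and 174. Replicate 3 of 7.4/bFGF was thus low in muscle but not in globin transcripts (503 CPM of Hbb-bs). In 6.4/aFGF the muscle sum was 636, 635 and 10311. Replicates 1 and 2 of that group were low in muscle but not in globin transcripts either (494 and 755 CPM of Hbb-bs). Of the 12 tested genes of the red cell and reticulocyte list, 10 had a lower estimate in 6.4/bFGF than in 7.4/bFGF (median -0.97, beside 0.01 over all genes) and none was called by edgeR. Fech, the enzyme that puts iron into heme, stood at 49.0 to 53.6 CPM in 6.4/bFGF and at 65.2 to 71.3 CPM in 7.4/bFGF (log2 fold change -0.41, SE 0.08, edgeR adjusted p = 0.542, DESeq2 adjusted p = 0.0133). For the difference between both pH effects, Fech had a log2 difference of 0.68 (SE 0.14, edgeR adjusted p = 0.765, DESeq2 adjusted p = 0.00871). All 10 skeletal muscle genes and all 8 tested liver genes had a lower estimate in 6.4/bFGF (medians -2.16 and -1.13), whereas 9 of 11 skin genes and 4 of 7 megakaryocyte and platelet genes had a higher one. The part of tissue content in these values was not tested.

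Replicate 3 of 7.4/aFGF was examined because it holds marrow RNA, and marrow makes red cells. All 15 genes of the cartilage and bone list were highest in this library, with a summed FPKM of 135 against at most 3.79 in any other library, and all 13 genes of the bone marrow granulocyte precursor list were highest there too, with 299 against at most 124.8. The summed FPKM of the erythroid precursor list, led by Aqp1, Epor and Tal1, was not high there, at 127 (position 13 of 21 libraries, against up to 169 elsewhere). Its less abundant genes hardly weigh in that sum, so its position does not measure erythroid precursor content. Some genes of this list and of the red cell list were high in the library. Hemgn, a nuclear protein of erythroid cells, reached 3.28 CPM against at most 0.656 elsewhere, the erythroid transcription factor gene Klf1 1.10 against at most 0.297, and Slc4a1, the red cell anion exchanger, 18.7 against at most 1.77. In all, 9 of 18 genes of the red cell list and 4 of 10 of the erythroid precursor list were highest in this library.

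The members did not stand high in the marrow library. Its Hba-a1 was 100.4 CPM, Hbb-bs 239.9 CPM and Alas2 17.3 CPM, below replicate 2 of its own group (269.8, 666 and 42.9 CPM) and below the medians over all libraries (168, 438 and 26.8 CPM). Its globin FPKM summed to 755, within the range of 518 to 2728 over all libraries. The other members were likewise inside the range of the remaining libraries. Without this library alone, the only member call of edgeR described below, that of Hmox1 for aFGF against bFGF, was kept (log2 fold change 0.70, adjusted p = 0.0262).

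**Figure D2:**
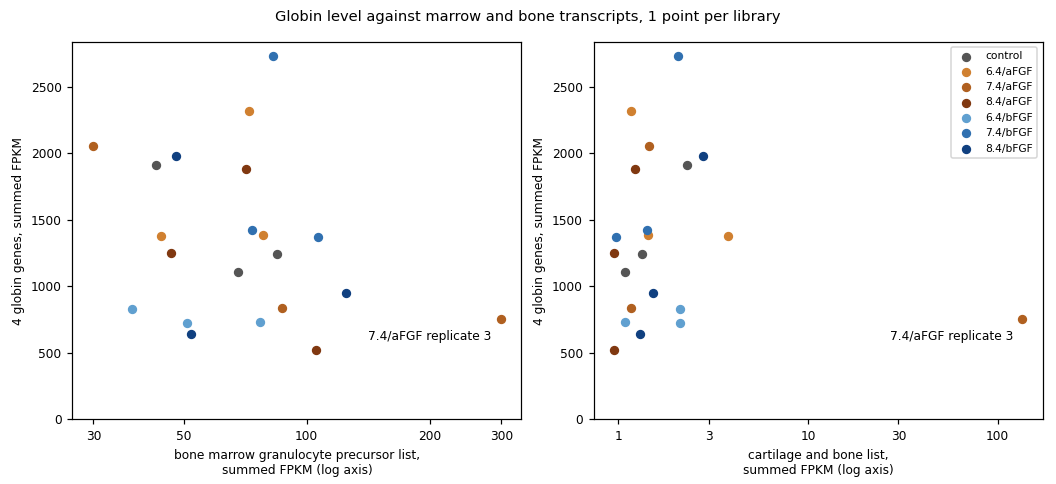
Summed FPKM of the 4 globin genes (vertical axes, from 0) against the summed FPKM of the bone marrow granulocyte precursor list (left) and of the cartilage and bone list (right), both on log axes, with 1 point per library coloured by group. Replicate 3 of 7.4/aFGF lies far to the right in both panels, at 299 and 135, with a globin sum of 755 in the lower part of the range.

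The proportions among the globin genes hardly varied while their sum varied 5.26-fold. Hba-a1 made up 62.8 to 67.5% of the counts of both alpha genes, and Hbb-bs 78.7 to 82.3% of the counts of both beta genes. On the FPKM scale the alpha genes summed to 0.44 to 0.595 of the beta genes. The ratio of Alas2 to the globin sum varied 1.68-fold, with the lowest value in replicate 3 of 6.4/bFGF and the highest in replicate 2 of 7.4/bFGF. Together the globin genes took 0.0316 to 0.167% of a library's counts. The genes of each pair are near-identical copies that lie close together on the chromosome, with Hbq1b between the alpha genes, and how reads that match both copies were counted is not given in the sources used here. The split within a pair is therefore uncertain, and summing the copies changed no call.

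The globin genes and Alas2 went up and down together over the 21 libraries, and the other members did so far less. Of the 45 pairs of members, correlated on log2 CPM with permutation tests (100000 resamples, two-sided, adjusted over the 45 pairs), all 10 pairs within the globin genes and Alas2 had Pearson's r of 0.956 to 0.995. Spearman's rho for Hbb-bs and Alas2 was 0.977 (r = 0.962), and both permutation p-values were 1e-05, the smallest that these resamples can give (adjusted 4.5e-05). With the group means removed, r was 0.967 to 0.996, so the relation held within groups, and without the 2 libraries farthest from the median of the first gene it stayed at or above 0.941. The 25 pairs that join these 5 genes to the other 5 had r of -0.331 to 0.217, and none reached an adjusted p under 0.05. Hmox1, which breaks down heme, had r of 0.068 with Alas2 and 0.093 with Hbb-bs. Reads that match both copies of a pair could raise r within that pair, but not with Alas2.

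**Figure D3:**
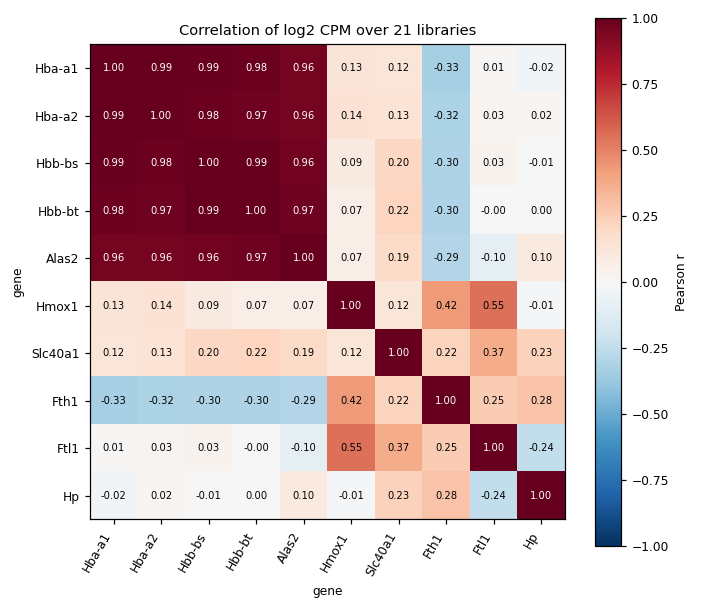
Pearson's r of log2 CPM between all pairs of the 10 members over 21 libraries, written in each cell and coloured from blue (-1) to red (1). The block of the 4 globin genes and Alas2 at the upper left holds values of 0.956 or more, and among the rest Hmox1 with Ftl1 has the highest value, 0.547.

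Hmox1, the heme oxygenase gene that stress and heme induce, separated the growth factors at pH 8.4. The 8.4/aFGF libraries had 2485, 2089 and 1555 CPM (mean 2043 ± 467, SD, n = 3), the highest mean of all groups. The 8.4/bFGF libraries had 611, 525 and 519.9 CPM (mean 552 ± 51.5), the lowest mean, and did not overlap with 8.4/aFGF. The controls had 504, 837 and 504 CPM, the 6.4/aFGF libraries 1031, 714 and 1043 CPM and the 7.4/aFGF libraries 1438, 1142 and 889 CPM. With bFGF, the values were 605, 855 and 1550.3 CPM at pH 6.4 and 1428, 878 and 782 CPM at pH 7.4. Replicate 3 of 6.4/bFGF thus lay near the lowest 8.4/aFGF library, and in the order of group means only 8.4/aFGF and the next group, 7.4/aFGF, did not overlap.

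Averaged over the 3 pH values, Hmox1 was higher with aFGF than with bFGF, a difference that came mainly from pH 8.4. Its group means were 2043 CPM with aFGF and 552 CPM with bFGF at pH 8.4. At pH 6.4 they were 929 and 1003 CPM, and at pH 7.4 they were 1156 and 1029 CPM. Over the 3 pH values, Hmox1 had a log2 fold change of 0.65 (SE 0.19, edgeR adjusted p = 0.0368), which corresponds to 1.57-fold. It was the only one of the 10 members called in this comparison, in which edgeR called 506 of 15811 genes (3.2%). DESeq2 also called Hmox1 alone of the members (adjusted p = 0.00967), among 777 genes (4.7%), and 4431 genes (28%) had an unadjusted edgeR p under 0.05. The libraries of both growth factors overlapped for all 10 members, and were without overlap in 0.658% of all genes. The call was lost without the 3 other-tissue libraries (log2 fold change 0.68, adjusted p = 0.078) and with the replicate number as a block. It was also lost in 12 of the 21 fits that left out 1 library. Over the 21 fits the log2 fold change was 0.56 to 0.80 and the adjusted p 0.0118 to 0.0786. The other 9 members had values of -0.21 to 0.41, and the median over the 10 genes was 0.21, beside 0 over all genes tested.

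Taken at each pH, the aFGF and bFGF libraries of Hmox1 were without overlap in 1 of 3 comparisons, that at pH 8.4, where 14.9% of all genes were without overlap and higher with aFGF. At pH 8.4 the log2 fold change of aFGF against bFGF was 1.89 (SE 0.20), or 3.7-fold, with an edgeR adjusted p of 0.0645, just above the threshold, and a DESeq2 adjusted p of 9.4e-17. By p it ranked at position 5 of 15041 genes, of which edgeR called 1 (0.00665%) and no member, while DESeq2 called 949 (6.07%), with Hmox1 the only member. A fit of all 21 libraries called Hmox1 (adjusted p = 0.0439), as did the fit without replicate 3 of 8.4/aFGF (log2 fold change 2.06, adjusted p = 0.0287). Without replicate 2 of 8.4/aFGF and replicate 2 of 8.4/bFGF the value was 1.83 (SE 0.28, adjusted p = 0.203). At pH 6.4 the log2 fold change was -0.12 (SE 0.35), and at pH 7.4 it was 0.17 (SE 0.29), where edgeR called 0 of 15049 genes (0%; 1960 genes, or 13%, at an unadjusted p under 0.05) and DESeq2 264 (1.67%), none of them a member.

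Against the neutral hydrogel, the values at pH 8.4 went opposite ways with the growth factors. Hmox1 in 8.4/aFGF had a log2 fold change of 0.81 against 7.4/aFGF (SE 0.23) and the groups did not overlap. In 8.4/bFGF it had -0.88 against 7.4/bFGF (SE 0.25), again without overlap. edgeR called neither (adjusted p = 1 and 0.861) and 0 of 14968 and 0 of 15092 genes (0%), with 450 genes (3.01%) and 864 genes (5.72%) at an unadjusted p under 0.05, and DESeq2 called 11 (0.0652%) and 27 (0.181%) genes, none of them a member. Of all genes, 4.88% were without overlap and higher in the first comparison, and 7.17% were without overlap and lower in the second. The difference between both effects was 1.70 (SE 0.37), which ranked at position 3 of 15502 genes by p. edgeR called 0 genes for this difference (0%; 734 genes, or 4.73%, at an unadjusted p under 0.05), with an adjusted p of 0.993 for Hmox1, and DESeq2 called 4 (0.0236%), Hmox1 among them (adjusted p = 0.0408).

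**Figure D4:**
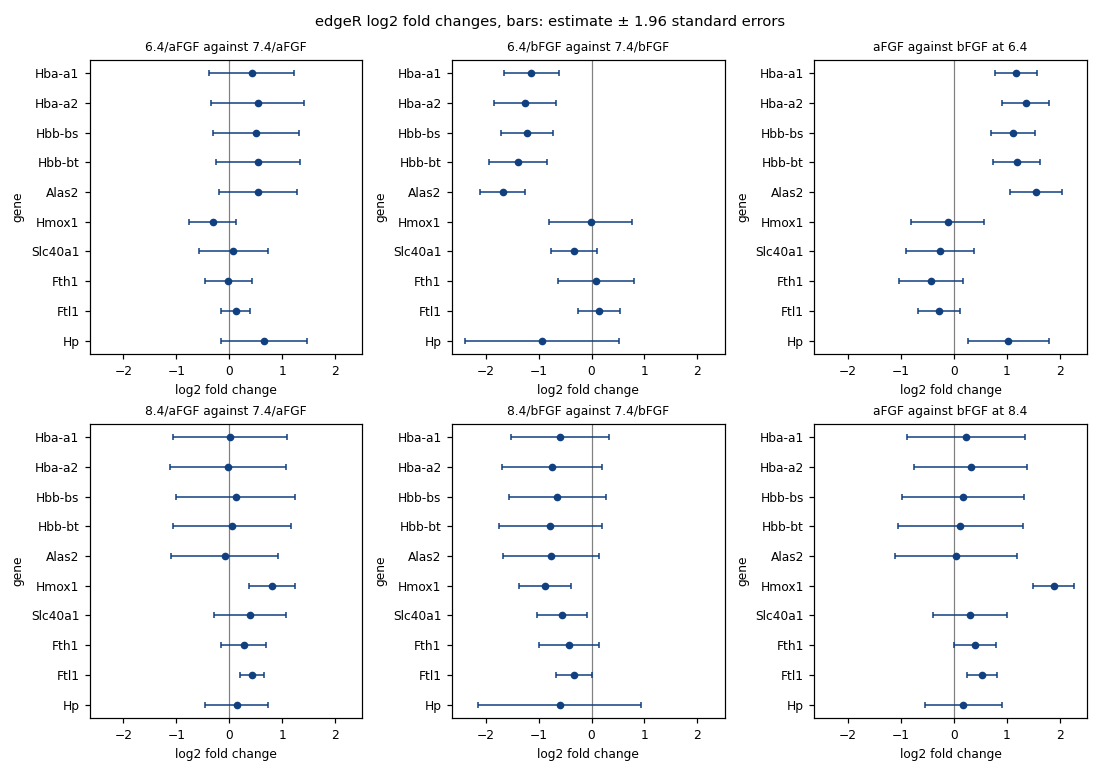
edgeR log2 fold changes of the 10 members (horizontal axes) in 6 comparisons, with bars for the 95% interval and a grey line at 0. The globin genes and Alas2 lie left of 0 for 6.4/bFGF against 7.4/bFGF and right of 0 for aFGF against bFGF at pH 6.4, and Hmox1 stands far right for aFGF against bFGF at pH 8.4.

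At pH 8.4, most macrophage and neutrophil genes had a higher estimate with aFGF than with bFGF, but edgeR called none of them. DESeq2 called some, in a comparison in which it called 6.07% of all genes. All 11 macrophage genes had a higher estimate in 8.4/aFGF than in 8.4/bFGF (median 0.51, beside -0.01 over all genes), of which edgeR called none and DESeq2 2. Their summed FPKM overlapped, at 8652, 9011 and 6128 in 8.4/aFGF and 6683, 4680.4 and 5771 in 8.4/bFGF. Of the 10 neutrophil genes, 9 had a higher estimate, and their sums overlapped, at 8087 to 21150 against 7011 to 20121. edgeR called none of these and DESeq2 called 3, namely Il1r2 (log2 fold change 1.47, SE 0.23, DESeq2 adjusted p = 5e-07), Cxcr2 (1.203, SE 0.34, 0.0106) and Hdc (1.32, SE 0.41, 0.0167). No gene of either list was at 0 counts in any library. All 7 tested megakaryocyte and platelet genes also had a higher estimate (median 0.75, DESeq2 called 1), with sums of 686 to 936 against 389.8 to 599.7, as did 10 of 11 liver genes (median 3.71, sums of 25.0 to 204 against 19.2 to 204). The ratio of Hmox1 to Hmox2, the constitutive heme oxygenase gene, was 32.5, 28.1 and 20.0 on the FPKM scale in 8.4/aFGF and 9.28, 8.72 and 7.71 in 8.4/bFGF. The part of macrophage, neutrophil and platelet content in the Hmox1 values was not tested.

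The ferritin genes were among the most abundant transcripts of the wounds, with Fth1 at rank 2 and Ftl1 at rank 5 of all genes by median FPKM. Ftl1 was also among the steadiest members, with a within-group SD of 0.17 on the log2 scale against a median of 0.29 over all genes tested. Its libraries stood at 4569, 3833 and 4291 CPM in 8.4/aFGF, 3040.2, 3089.8 and 3191 CPM in 7.4/aFGF, 2933, 2587 and 3265 CPM in 8.4/bFGF and 4022, 3993 and 3259 CPM in 7.4/bFGF. All 8.4/aFGF libraries were above all of 7.4/aFGF, as in 4.88% of all genes, and above all of 8.4/bFGF, as in 14.9% of all genes. The log2 fold change was 0.43 for 8.4/aFGF against 7.4/aFGF (SE 0.12), 0.53 against 8.4/bFGF (SE 0.15, edgeR adjusted p = 0.14, DESeq2 adjusted p = 0.01) and the difference of both pH effects was 0.78 (SE 0.19, edgeR adjusted p = 0.993). For aFGF against bFGF at pH 8.4, the estimate of Ftl1 by DESeq2 was under the fold threshold. Ftl1 and Hmox1 were the only pair outside the globin block with an adjusted p under 0.05 (r = 0.547, permutation p = 0.0104, adjusted 0.0426). Spearman's rho was 0.384 (permutation p = 0.0871, adjusted 0.28), and r was 0.446 without the 2 libraries farthest from the median of Hmox1. With group means removed (r = 0.437), without the other-tissue libraries (r = 0.498) and on the log2(FPKM + 1) scale, the pair had no adjusted p under 0.05.

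Fth1 varied more than Ftl1, and 1 control library set its comparison with the hydrogels. Its control libraries had 2876, 8515 and 2885 CPM, and the 18 hydrogel libraries ranged from 3924 CPM in 8.4/bFGF to 9645 CPM in 7.4/bFGF. Replicate 2 of the control, the library with the high neutrophil sum, was thus inside the hydrogel range and the other control libraries below it. The ratio of Fth1 to Ftl1 on the FPKM scale was 0.876 and 0.765 in those, and 2.46 in replicate 2. The highest ratio of all, 3.05, was that of replicate 3 of 7.4/bFGF, which also had the highest neutrophil sum, 23260. Other libraries with high neutrophil sums had lower ratios. Replicate 3 of 8.4/aFGF had a ratio of 1.77 at a sum of 21150, and replicate 3 of 6.4/bFGF 1.65 at 18335. The part of neutrophil content in these values was not tested.

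Hydrogel wounds were compared with control wounds as the mean of the 6 hydrogel groups. Hmox1 had a log2 fold change of 0.76 (SE 0.26, edgeR adjusted p = 0.191; DESeq2 adjusted p = 0.0693), and Fth1 of 0.29 (SE 0.30, edgeR adjusted p = 0.657). For Hmox1 the mean difference of log2 CPM was 0.76, with an exact two-sided permutation p of 0.0684 (adjusted over all genes tested 0.402; the smallest p possible is 0.000752). None of the 10 members was called by edgeR or DESeq2, and no member was without overlap (0.607% of all genes were), in a comparison in which edgeR called 1 gene (0.00632%), DESeq2 called 171 (1.16%) and 2640 genes (16.7%) had an unadjusted p under 0.05. Without replicate 2 of the control, edgeR called Hmox1 (1.04, adjusted p = 0.0403) and Fth1, among 1189 genes in all. The globin genes and Alas2 had values of -0.19 to -0.002, and the 95% interval was -0.92 to 0.54 for Hba-a2 and -0.70 to 0.70 for Alas2.

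Among all 7 groups, edgeR's F test called none of the 10 members, with 18 of 15811 genes called (0.114%) and 3055 (19.3%) at an unadjusted p under 0.05. Hmox1 came nearest, with an adjusted p of 0.0785 at position 85 of all genes, and Ftl1 was the only other member with an unadjusted p under 0.05 (adjusted p = 0.189). DESeq2 called both (adjusted p = 1.22e-05 and 0.0247) among 2030 genes (12.3%).

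**Figure D5:**
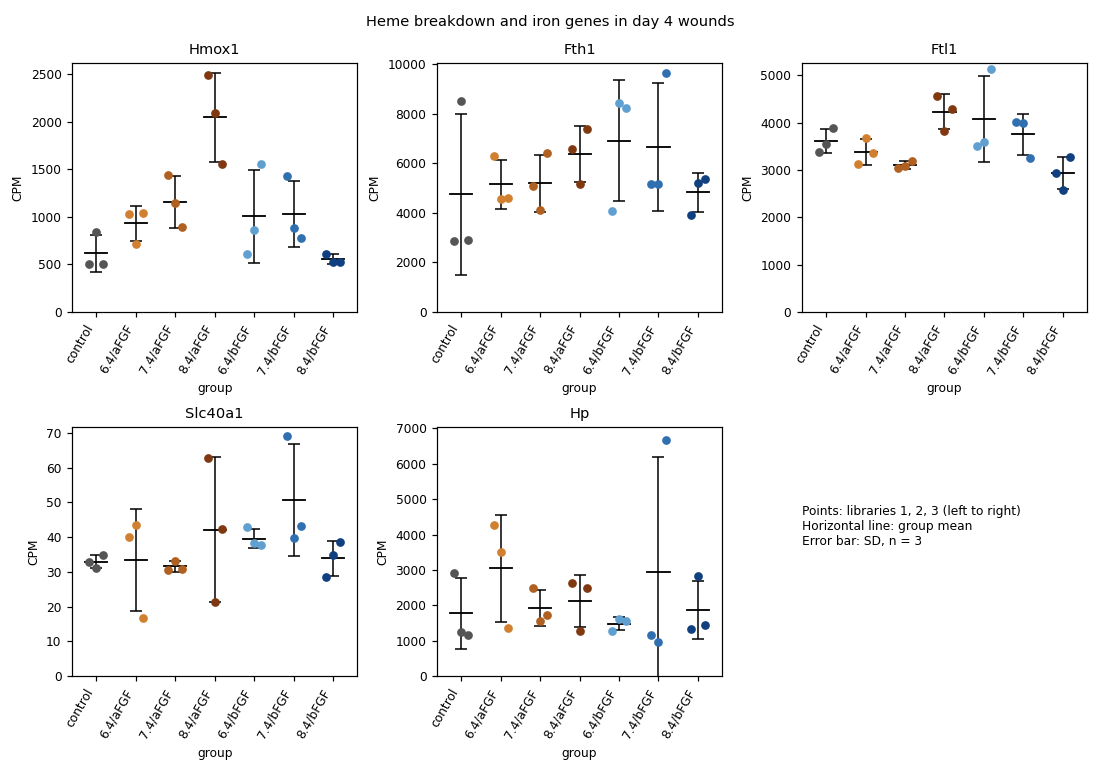
CPM (vertical axes, from 0) of Hmox1, Fth1, Ftl1, Slc40a1 and Hp in the 7 groups, with 1 point per library, the group mean as a line and the SD over 3 libraries as a bar. Hmox1 and Ftl1 are high in all 3 libraries of 8.4/aFGF, Fth1 is high in 1 of 3 control libraries, and Hp has its highest and its lowest library in 7.4/bFGF.

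Slc40a1, the only known exporter of iron from cells, was the least abundant member by median FPKM (11.6). It had 69.1, 39.6 and 43.3 CPM in 7.4/bFGF, and 30.5, 33.2 and 30.9 CPM in 7.4/aFGF, without overlap. The log2 fold change of 7.4/aFGF against 7.4/bFGF was -0.68 (SE 0.23, edgeR adjusted p = 0.361, DESeq2 adjusted p = 0.151), where 11.8% of all genes were without overlap and lower with aFGF. Ftl1 was without overlap there too, with a log2 fold change of -0.27 (SE 0.14, edgeR adjusted p = 0.433). In 8.4/bFGF Slc40a1 had 28.5, 34.9 and 38.5 CPM, also below all of 7.4/bFGF (log2 fold change -0.56, SE 0.24, edgeR adjusted p = 0.862), as in 7.17% of all genes. The lowest library of Slc40a1 was replicate 3 of 6.4/aFGF, at 16.7 CPM.

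Hp, made in large amounts by the liver and also held by neutrophils, was the most variable member. Its within-group SD was 0.81 on the log2 scale, at percentile 85.0 of all genes tested, against 0.62 to 0.66 for the globin genes and Alas2 (percentiles 77.9 to 79.6). In 7.4/bFGF it stood at 1150.3, 959 and 6687 CPM, which are the extremes of all 21 libraries. The 6.4/aFGF libraries had 4274, 3503 and 1366 CPM and the controls 2915, 1244 and 1148 CPM, so the groups overlapped. Its largest estimate was 1.03 for aFGF against bFGF at pH 6.4 (SE 0.39, edgeR adjusted p = 0.598, DESeq2 adjusted p = 0.207).

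The other genes of the pathway were taken from fixed lists, and edgeR called none of them in any of the 12 comparisons. Heme synthesis was represented by 12 genes, of which Alas1, the form of the first enzyme used outside red cells, was the most abundant (23.1 to 56.9 FPKM), followed by Urod (median 21.2 FPKM) and Fech (median 18.1 FPKM). Alas2 stood at 0.132 to 0.885 of the FPKM of Alas1, so the non-erythroid form was the higher one in each library. Heme synthesis genes had a median log2 fold change of -0.15 in 6.4/bFGF against 7.4/bFGF, with 10 of 12 lower, 1 at an unadjusted p under 0.05 and none called by DESeq2 beyond the fold threshold. The median over all genes was 0.01.

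Heme breakdown and transport was represented by 13 genes beside Hmox1, led by Lrp1, the receptor of heme bound to hemopexin (median 119 FPKM), Cd163, the macrophage receptor of haptoglobin with haemoglobin (80.4 FPKM), and Nfe2l2, which encodes NRF2 (72.9 FPKM). For aFGF against bFGF at pH 8.4, 12 of the 13 had a higher estimate, 6 with an unadjusted p under 0.05 (21.1% of all genes reached that). DESeq2 called 1 of the 13, in a comparison in which it called 6.07% of all genes. The median was 0.28, beside -0.01 over all genes. The called gene was Nfe2l2, at 168 to 331 CPM in 8.4/aFGF and 132 to 159 CPM in 8.4/bFGF (log2 fold change 0.78, SE 0.25, edgeR adjusted p = 0.162, DESeq2 adjusted p = 0.0384). Bach1, the repressor of Hmox1, had a value in the same direction (log2 fold change 0.78, SE 0.27, edgeR adjusted p = 0.182, DESeq2 adjusted p = 0.0632). Cd163 was at 207 to 367 CPM in 6.4/bFGF and at 400.1 to 741 CPM in 7.4/bFGF (log2 fold change -1.13, SE 0.31, edgeR adjusted p = 0.542, DESeq2 adjusted p = 0.0385).

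Iron uptake, storage and control was represented by 20 genes with counts, led by Lcn2 (median 637 FPKM), which withholds iron from bacteria, Pcbp1, an iron chaperone (165 FPKM), and Steap4, a metalloreductase (141 FPKM). For aFGF against bFGF at pH 8.4, 12 of 19 tested genes had a higher estimate and 7 a lower one, with 3 at an unadjusted p under 0.05, in a comparison in which 21.1% of all genes reached that p and DESeq2 called 6.07%. DESeq2 called Slc11a1, the metal transporter of phagosomes (log2 fold change 0.86, SE 0.19, adjusted p = 0.00301), and Heph, a ferroxidase (-1.23, SE 0.37, adjusted p = 0.0195). The other globin genes were nearly silent or not of red cells. Myoglobin (Mb, a muscle gene) spanned 3.74 to 226.5 CPM and cytoglobin (Cygb) 28.2 to 139 CPM, whereas the embryonic genes Hba-x, Hbb-y and Hbb-bh1 had at most 4, 4 and 1 counts in any library. A count of 0 allows a level of up to 3 counts in that library, counting error only.

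The genes whose log2 CPM was most like a member's were sought among 13892 genes with a mean of at least 1 CPM over the 21 libraries, by Pearson's r, as a description. For Hbb-bs and for Alas2 the first 4 were the other genes of their block, with r of 0.962 to 0.995 and 0.956 to 0.973. For Hmox1 they were Kcnk13 (0.916), Macir and Klf3 (both 0.91), C5ar1, the receptor of complement C5a (0.899), and Cdc42se1 (0.894). For Fth1 they were the glucose transporter gene Slc2a1 and Pnrc1 (both 0.946), Glrx (0.935), Prdx5 (0.932) and Slc9a3r1 (0.93). For Ftl1 the closest was Creg1 (0.844), followed by the heme transporter gene Slc48a1 (0.789), Htatip2 (0.78), Prdx1 (0.748) and Ninj1 (0.723). For Hp they were Wfdc21 (0.9), Tapt1 (0.868), Gnal (0.864), Lpgat1 (0.856) and Tspan15 (0.829), and for Slc40a1 they were Pacs1 (0.836), Abcc3 (0.803), Fbh1 (0.791), Nisch (0.773) and Zfyve28 (0.755). These r values are taken over libraries that share groups and composition, and the highest of many genes was chosen.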

How the data were processed

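RNA was extracted from day 4 wounds with TRIzol and sequenced from stranded mRNA libraries. Unnormalized counts were deposited by the authors, 1 file a library. FPKM values were deposited by the authors as well, and dividing a gene's count by 1 length and by the library total returned them (checked on 13158 genes with 20 or more counts in every library, spread at most 5.57e-06%). The genome build is GRCm39 per the submitters' processing notes. The aligner, the counting tool and the use of strand are not given in the sources used here. Of 18806 symbols, 18669 (99.3%) matched a RefSeq gene table (build GRCm38.p6, not that of the files), used for names and gene order only.

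The tests used edgeR 4.0.16 under R 4.3.3: its standard expression filter by group, TMM factors and the quasi-likelihood F test. Log2 CPM had a prior count of 2. A call needed an adjusted p (Benjamini-Hochberg, over all genes tested) under 0.05 and a log2 fold change beyond 0.58, with no fold threshold for the test of 7 groups. Comparisons of 2 groups were fitted on their 6 libraries, interactions on 12, and the others on all 21. The 95% intervals assume normal errors. Libraries of a group differed by more than counting noise, and errors are therefore SDs over libraries. Permutation tests used scipy 1.17.1.

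The members and lists were chosen with earlier results of these data known, so their values are no independent support for a pattern. The genes named are all members, the 3 most abundant genes of each pathway list, called genes, and for some members the 5 genes with the highest r. One gene that the rule or a list holds is not reported here. Other list genes, among them those called by DESeq2 alone and those of the marrow library, were chosen after their values were seen. Alternatives were DESeq2 1.42.0 with default settings, RLE normalization, other filters, limma 3.58.1 on FPKM (log2 with a pseudocount of 1 or 0.1, mean of at least 1 FPKM or no filter), no fold threshold, the replicate number as a block, near-identical copies summed, all 21 libraries in 1 fit, and leaving out libraries. The 3 comparisons of aFGF with bFGF at a single pH were added once values were known. On simulated data with 3 libraries a group, 6.4/aFGF against 7.4/aFGF recovered 112 of 193 changed genes among 15064, with 86.2% of those changed 8-fold, 73.8% of those changed 4-fold and 16.4% of those changed 2-fold.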

Additional observations from a re-analysis of the deposited data

Results flagged for a closer look

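For 2 members the effect of pH differed between the growth factors by a test of the difference itself, though by DESeq2 alone. The 6.4 against 7.4 effect on Alas2 was 2.22 higher on the log2 scale with aFGF than with bFGF (SE 0.48), with an adjusted p of 0.0114 by DESeq2 and 0.765 by edgeR. Leaving out each of the 12 libraries gave 1.91 to 2.68. The 8.4 against 7.4 effect on Hmox1 was 1.699 higher with aFGF than with bFGF (SE 0.37), with an adjusted p of 0.0408 by DESeq2 and 0.993 by edgeR. Leaving out each library gave 1.38 to 1.88, and leaving out the other-tissue libraries gave 1.48 (edgeR adjusted p = 0.811).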

How the results depend on the processing

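Of 267 alternatives to the counts of members called, 242 kept the count within 1.5 times. With DESeq2 the count was 2 for 7 groups, 5 for 6.4/bFGF against 7.4/bFGF and for aFGF against bFGF at pH 6.4, and 1 for each interaction and for aFGF against bFGF at pH 8.4, where the fit of all 21 libraries also gave 1. For aFGF against bFGF it was 0 in place of 1 with the replicate block and without the other-tissue libraries; with the block Hmox1 had a log2 fold change of 0.64 (adjusted p = 0.0568). Leaving out 1 library gave 0 to 1 for 7 groups (1 without control replicate 2), 0 to 2 for hydrogels against control (2 without control replicate 2), 0 to 1 for aFGF against bFGF, 0 to 1 for 6.4/bFGF against 7.4/bFGF (1 without 7.4/bFGF replicate 3) and 0 to 1 for aFGF against bFGF at pH 8.4 (1 without 8.4/aFGF replicate 3). The 12 libraries whose absence removed the Hmox1 call were replicates 1 and 3 of 6.4/aFGF, 1 and 2 of 7.4/aFGF, 1 and 2 of 8.4/aFGF, 1 and 2 of 6.4/bFGF, 2 and 3 of 7.4/bFGF, and 2 and 3 of 8.4/bFGF. The causes were not tested.

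Of 590 alternatives for single genes, 551 stayed on the same side of the threshold with the same sign. The sign of Hmox1 reversed 8 times where its value was near 0: to 0.237, 0.081 and 0.303 for 6.4/bFGF against 7.4/bFGF (range -0.474 to 0.303), to 0.177 for the interaction at pH 6.4 (-0.618 to 0.177), to 0.03 and 0.318 at pH 6.4 (-0.376 to 0.318) and to -0.013 and -0.009 at pH 7.4 (-0.013 to 0.489), each without 1 library. Correlated pairs were 11, and 10 under each alternative.

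The count of all genes called moved by over 1.5 times with DESeq2 wherever edgeR called few (values in the text), for aFGF against bFGF to 777 with DESeq2, 1702 without a fold threshold, 212 with limma on log2(FPKM + 1) and 191 without its filter. For 7 groups it was 10 with the block, 3 without the other-tissue libraries and 864 without control replicate 2, whose absence gave 1189 for hydrogels against control. Replicate numbers did not pair the libraries: 14 of 63 same-number pairs correlated over 0.1, and 5 of 21 libraries correlated best with their own number. No setting without other-tissue libraries exists for comparisons that hold none. In simulated data, 16.4% of 2-fold and 73.8% of 4-fold changes were recovered for 6.4/aFGF against 7.4/aFGF, and 68.7% and 89.4% for aFGF against bFGF.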

Other observations

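Hp and the globin genes, whose products bind each other, showed no detectable relation over the 21 libraries. Pearson's r between Hp and the globin genes was -0.024 for Hba-a1, 0.019 for Hba-a2, -0.006 for Hbb-bs and 0.003 for Hbb-bt, with permutation p of 0.917 to 0.989 (adjusted over the 45 pairs 0.996 for all 4). Spearman's rho was -0.108 to -0.055 (permutation p of 0.641 to 0.813, adjusted 0.972), and r was -0.021 to 0.179 without the 2 libraries farthest from the median. Hpx, which encodes the heme carrier hemopexin, spanned 1.52 to 50.1 CPM, with its highest library, replicate 3 of 7.4/bFGF, being the one with the highest Hp.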
